A study of Mus musculus with 9 samples.

Results

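The genes described are 10 immediate early genes, chosen by symbol from the count table: the EGR transcription factors Egr1, Egr2 and Egr3, the orphan nuclear receptors Nr4a1, Nr4a2 and Nr4a3, the early response genes Ier2, Ier3 and Ier5, and the MAP kinase phosphatase gene Dusp1. All 10 were found, each as 1 entry among the 54232 entries of the table, and all 10 were among the 13810 genes tested. Their messenger RNA was measured by poly(A) RNA sequencing in cells of the mouse line HT22, labelled as hippocampal neuronal and wild type, grown in DMEM with serum. There were 3 groups of 3 libraries: control cells with no intervention, Hb cells given oxyhemoglobin, and Hb+NTR1 cells given oxyhemoglobin together with NTR1, a name that the series title writes as NGR1. No group received NTR1 without oxyhemoglobin, and the sources used here give neither doses nor the time between treatment and harvest. The cell type field of the labels reads HT-4, the name of another line. Nothing in the labels says whether the libraries of a group are separate cultures, so each p-value weighs a difference against the spread of these libraries, which may be technical.

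Immediate early genes are transcribed within minutes of a stimulus, with no need for new protein, because the factors that switch them on are already present in the cell. Growth factors, calcium, cyclic AMP and stress act through MAP kinases and other kinases on SRF with its ternary complex partners and on CREB, and the transcripts are then destroyed quickly. The products are mostly transcription factors that drive a second wave of genes, together with phosphatases such as DUSP1 that switch the kinases off again. In neurons, Egr1, Egr3 and Nr4a1 are widely used as markers of recent activity.

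Each library held between 13415648 and 16893746 counts. Neuronal identity was weak in these libraries: of 15 neuronal marker genes, 11 lay under 1 in control on the CPM scale (counts divided by the TMM-scaled library size), and Map2 and Snap25 had 0 counts in all 9 libraries. The summed level of the 15 neuronal markers was 114 to 122 CPM in control, 121 to 130 CPM in Hb and 49.9 to 52.9 CPM in Hb+NTR1. The summed level of 10 fibroblast markers, among them the collagen genes Col1a1 and Col1a2, was 14021 to 14935 CPM in control, 11294 to 12740 CPM in Hb and 1302 to 1404 CPM in Hb+NTR1. All 8 fibroblast markers tested were lower in Hb+NTR1 than in both other groups. Of the 10, 2 lay under 1 CPM in control and were not tested, Lum (0.131 ± 0.177 CPM) and Fap (0 CPM). None of the 10 was at 0 in every library, but Fap had only 1 count, in Hb+NTR1 replicate 2. The 5 astrocyte markers, with Aqp4 at 0, summed to 199 to 229 CPM in control, 115 to 138 CPM in Hb and 8.08 to 9.27 CPM in Hb+NTR1. Nearly all of that sum was the glutamate transporter gene Slc1a3 (211 ± 14.5 CPM in control and 7.07 ± 0.477 CPM in Hb+NTR1), while Gfap was at 0.259 ± 0.101 and 0.882 ± 0.339 CPM. Erythroid markers were near 0, with a summed level of 0.913 to 1.92 CPM over the 9 libraries and Hbb-bs at 0, as were 5 microglial markers (0.410 to 1.10 CPM) and 3 endothelial markers (0.273 to 2.40 CPM). Mitochondrially encoded genes took 4.73% to 5.20% of the counts in control, 4.14% to 4.57% in Hb and 6.19% to 6.65% in Hb+NTR1. The part of these marker and mitochondrial differences in the results that follow was not tested, and in bulk RNA fewer cells of a type cannot be told apart from less RNA per cell.

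The promoters of 5 of the genes are shown because they differ in which motifs of signal-responsive factors they hold. The letters are RefSeq's for GRCm38.p6, 5′ to 3′ on the strand of the gene, taken from the 250 bases before an annotated start and ending where the first exon of the gene in GENCODE M21 begins, but cut to 30 bases around its sites in Egr2, where another start lies upstream. Capitals mark matches on either strand to the core of the cyclic AMP response element (CRE), TGACG (read as CGTCA on the other strand), to the full CRE, TGACGTCA, which holds 2 cores, to the EGR site GCGNGGGCG, and to the CArG box and the NF-kB site. Those are the known sites of CREB, of the EGR proteins, of SRF and of NF-kB. The stretches of Nr4a1, Egr2 and Dusp1 lie within the gene spans given further on, because longer transcript models start upstream of them.
Nr4a1, chr15:101266596-101266845, plus strand: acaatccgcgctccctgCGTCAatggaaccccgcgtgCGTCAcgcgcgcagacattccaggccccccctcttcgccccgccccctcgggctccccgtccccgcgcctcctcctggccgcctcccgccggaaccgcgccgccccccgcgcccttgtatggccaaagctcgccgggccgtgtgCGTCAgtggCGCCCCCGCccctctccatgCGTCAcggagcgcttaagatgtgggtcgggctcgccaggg
Nr4a3, chr4:48045055-48045152, plus strand: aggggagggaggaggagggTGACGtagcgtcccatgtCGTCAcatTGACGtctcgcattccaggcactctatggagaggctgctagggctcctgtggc
Egr2, chr10:67537793-67537822, plus strand: cagtCCATATATGGgcagcgaCGTCAcggg
Dusp1, chr17:26508520-26508722, minus strand: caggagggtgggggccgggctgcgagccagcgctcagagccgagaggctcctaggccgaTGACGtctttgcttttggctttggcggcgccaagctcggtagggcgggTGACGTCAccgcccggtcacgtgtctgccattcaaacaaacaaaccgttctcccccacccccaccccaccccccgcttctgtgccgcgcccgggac
Ier3, chr17:35821463-35821683, plus strand: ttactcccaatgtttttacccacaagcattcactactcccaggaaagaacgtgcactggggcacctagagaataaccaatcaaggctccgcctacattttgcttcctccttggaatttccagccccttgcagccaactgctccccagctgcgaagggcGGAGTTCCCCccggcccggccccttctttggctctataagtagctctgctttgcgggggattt

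Of the 10 genes, 7 had promoter entries that were used, and Egr1, Egr3 and Ier2 did not. Entries on chromosome 18, where Egr1 lies, were left out, also from the entries used for comparison. Nr4a1, Nr4a2 and Nr4a3 each held 4 CRE cores in the 250 bases, the last of Nr4a3 lying beyond the printed stretch. At least 1 core stood in 17.8% of the 32851 promoter entries of the same length, and at least 4 in 0.137%. Dusp1 held 3 core matches, of which 2 form the full CRE, found in 1.55% of entries. Egr2 has 5 entries, and the one printed in part held 2 cores, of which 1 is shown, and a CArG box, which 1.47% of entries hold. The same box lies in 3 of its entries, which overlap, and a different CArG box in 1 other. The EGR site was found in Nr4a1 and Nr4a2, against 4.7% of entries. Ier3 held no CRE core, 1 NF-kB site, which 7.25% of entries hold, and 2 CCAAT boxes. Another Egr2 entry, with its start at 67535499, held 3 overlapping NF-kB matches and no core. Ier5 held no CRE core and no NF-kB site, and of the motifs searched it held the CCAAT box, at 2 places, against at least 2 in 10.1% of entries. The NR4A site AAAGGTCA, in 1.34% of entries, and the AP-1 site TGANTCA, in 6.75%, were found in none of the 7. The core and the EGR site contain CG, and the part of GC content in these counts was not tested. GC content was 74.4% in Nr4a1, 80.0% in Nr4a2, 63.6% in Nr4a3 and 54.4% in Ier3, with a median of 52.4% over all entries. It was 68.4% in Dusp1 and 60.0% in Ier5. In Egr2 it was 71.2% in the entry with its start at 67535499 and 54.0% to 61.6% in the other entries. A match is a description of letters and not evidence of binding.

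The Hb libraries had lower levels of 4 of the 10 genes than control, and the Hb+NTR1 libraries had the highest mean level of all 10. In Hb against control, Egr1, Egr2, Egr3 and Ier2 fell, none of the 10 rose, and 6 did not pass the threshold (edgeR quasi-likelihood test, adjusted p of 0.05 over all genes tested). Of all tested genes, 3.65% passed in that comparison, 1.77% as lower and 1.88% as higher (245 and 259 genes, or 196 and 377 with scaling by library totals alone). This background rests on single libraries: the 504 genes became 315, 285 and 286 without control replicates 1, 2 and 3 and 1125 without Hb replicate 2, while the 4 members passed each time. In Hb+NTR1 all 10 genes were higher than in Hb, where 62.3% of all tested genes passed, 30.7% as higher and 31.6% as lower. All 10 were also higher than in control, where 63.6% passed, 31.4% as higher and 32.2% as lower. The 3 comparisons share libraries pairwise and are not independent, and 27.3% of all tested genes were higher in Hb+NTR1 than in both other groups. All Hb+NTR1 libraries lay above all Hb libraries in 9 members, the exception being Nr4a2, against 32.4% of tested genes. They lay above all control libraries in 9 members, the exception being Nr4a1, against 34.8% of tested genes, and below them in none, against 35.1%. Nr4a3 entered the test only through its counts in Hb+NTR1, so it had to differ there. Without it, the count of members called higher is 9 of 9. The 9 members in each comparison of libraries above include Nr4a3, as do the 5 and the 4 members at least 2-fold higher that follow, and the medians. With a required change of at least 2-fold, 5 members were higher in Hb+NTR1 than in Hb, against 6.19% of tested genes, and 4 were higher than in control, against 6.89%. None was at least 2-fold lower in these comparisons, against 9.78% and 9.99% of tested genes, and none was at least 2-fold higher in Hb than in control, against 0.21%. The sequence of a fall with oxyhemoglobin followed by a level above control with NTR1, called in all 3 comparisons, was found in Egr1, Egr2, Egr3 and Ier2, and in 0.362% of tested genes. The median log2 fold change of the 10 was -0.22 in Hb against control, 1.06 in Hb+NTR1 against Hb and 0.78 in Hb+NTR1 against control, where the medians of all tested genes were 0, -0.011 and -0.0042.

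**Figure D1:**
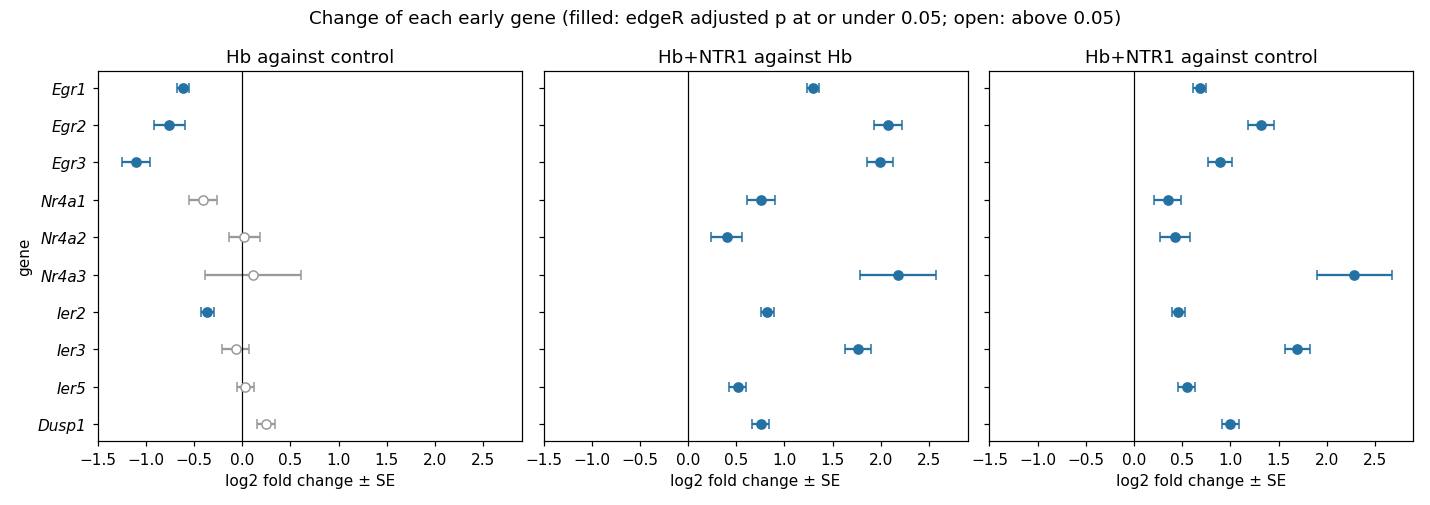
Log2 fold change ± SE (x axis) of each of the 10 genes (y axis) in the 3 comparisons, with filled points for genes past an adjusted p of 0.05 and open points for the others. Filled points lie left of 0 for Egr1, Egr2, Egr3 and Ier2 in Hb against control, and all 10 lie right of 0 in both panels of Hb+NTR1.

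The EGR factors are zinc finger proteins that bind GC-rich sites and share a DNA-binding domain. Egr1 (ENSMUSG00000038418.7, GRCm38 chr18:34859823-34864984) is the general early response factor of the family. Its level was 242, 261 and 254 CPM in control replicates 1 to 3, 169, 149 and 176 CPM in Hb, and 403, 399 and 409 CPM in Hb+NTR1. The 3 groups did not overlap, and the mean was 252 ± 9.71 CPM in control, 165 ± 14.1 CPM in Hb and 404 ± 5.09 CPM in Hb+NTR1 (SD, n = 3). Egr1 fell 1.53-fold in Hb against control (log2 fold change -0.62 ± 0.0659 SE, edgeR adjusted p = 1.91e-06). It was 2.46-fold higher in Hb+NTR1 than in Hb (log2 1.30 ± 0.0662, edgeR adjusted p = 4.32e-14) and 1.60-fold higher than in control (log2 0.68 ± 0.0649, edgeR adjusted p = 2.88e-09).

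Egr2 (ENSMUSG00000037868.15, GRCm38 chr10:67535475-67542188), known for its part in hindbrain patterning and myelination, had 11.2, 10.8 and 13.6 CPM in control. It had 8.97, 5.06 and 7.05 CPM in Hb and 29.5, 31.2 and 28.1 CPM in Hb+NTR1. All Hb libraries lay below all control libraries, and Hb replicate 2 was the lowest of the 9. The fall in Hb was 1.69-fold (log2 -0.76 ± 0.158, edgeR adjusted p = 0.00544), and without that library it was -0.56 on the log2 scale (adjusted p = 0.0123). The level in Hb+NTR1 was 4.22-fold that in Hb (log2 2.08 ± 0.146, adjusted p = 1.53e-11) and 2.50-fold that in control (log2 1.32 ± 0.135, adjusted p = 9.56e-09). Egr2 and Egr3 differed in their rise from Hb by less than their SEs, and without Hb replicate 2 Egr2 had the smaller value (log2 1.88 against 2.06).

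Egr3 (ENSMUSG00000033730.4, GRCm38 chr14:70077203-70082614), which acts in muscle spindles and in lymphocytes as well as in neurons, had 15.6, 13.1 and 11.6 CPM in control. It had 5.86, 6.83 and 6.08 CPM in Hb and 25.5, 27.7 and 21.7 CPM in Hb+NTR1, with no overlap between groups. It was the single member that fell at least 2-fold in Hb (2.15-fold, log2 -1.10 ± 0.145, edgeR adjusted p = 2.63e-05), where 0.159% of tested genes did so. Without control replicate 1, the highest control, the fall was -0.98 on the log2 scale and still passed (adjusted p = 0.000494), but no member then fell 2-fold. Egr3 was 3.98-fold higher in Hb+NTR1 than in Hb (adjusted p = 1.20e-11) and 1.85-fold higher than in control (adjusted p = 1.27e-06). Egr4, the remaining EGR gene, had 0 counts in all 9 libraries, which allows up to 3 counts in each, or 0.178 to 0.224 CPM of library totals, for counting error only.

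**Figure D2:**
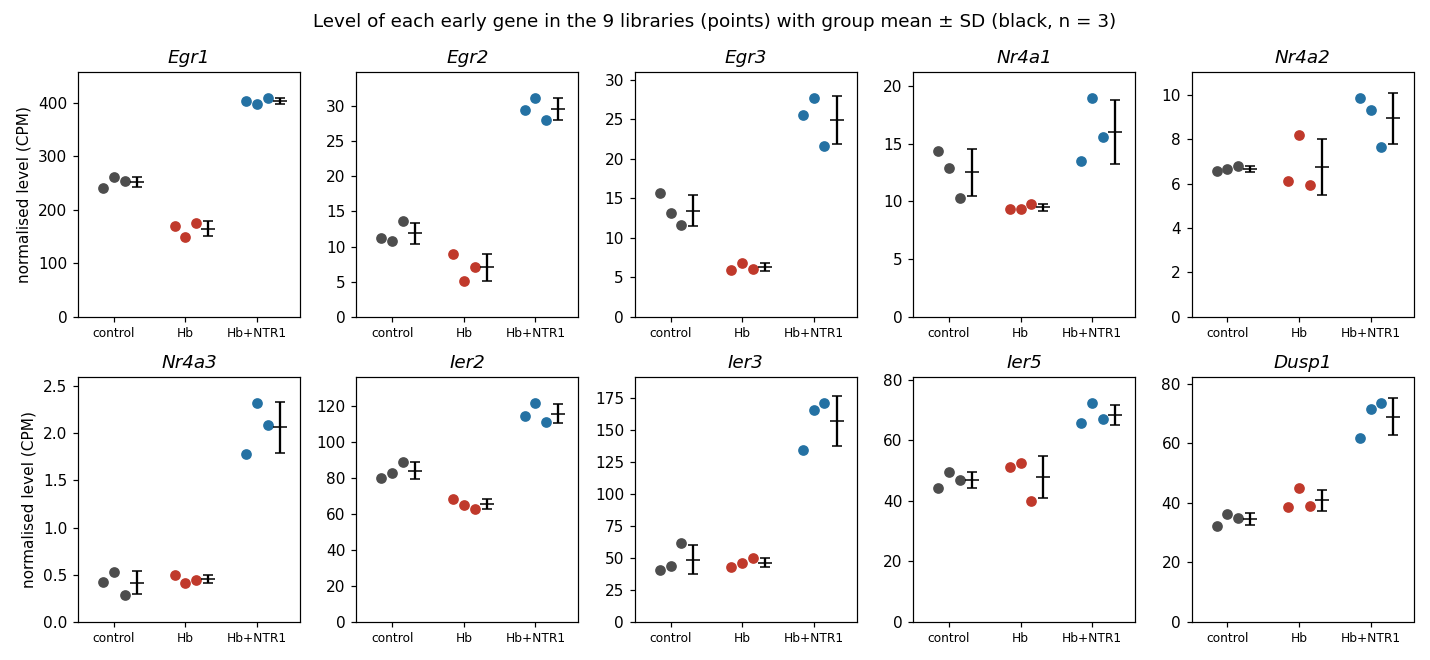
Normalised level in CPM (y axis, from 0, a separate scale for each gene) of each of the 10 genes in the 9 libraries, as points by group (x axis), with the group mean ± SD (n = 3) in black. In Egr1, Egr2, Egr3 and Ier2 the Hb points lie below control and the Hb+NTR1 points above it, and in Nr4a1 and Nr4a2 the Hb+NTR1 points reach down to those of another group.

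The NR4A receptors bind DNA without a known natural ligand and are controlled mostly by how much of them is made. Nr4a1 (ENSMUSG00000023034.7, GRCm38 chr15:101254269-101274795), also called Nur77, had 14.3, 12.9 and 10.3 CPM in control, 9.32, 9.29 and 9.79 CPM in Hb and 13.5, 19.0 and 15.6 CPM in Hb+NTR1. The Hb libraries were close to each other (9.47 ± 0.280 CPM, SD, n = 3) and below all others, while control and Hb+NTR1 overlapped. The difference of Hb from control did not pass (log2 -0.41 ± 0.146, edgeR adjusted p = 0.141). Nr4a1 was 1.69-fold higher in Hb+NTR1 than in Hb (log2 0.76 ± 0.144, adjusted p = 7.43e-05) and 1.27-fold higher than in control (log2 0.35 ± 0.138, adjusted p = 0.0305). The call against control ended without control replicate 2 (adjusted p = 0.0519) or 3 (0.175) and without Hb+NTR1 replicate 2 (0.228) or 3 (0.0532).

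Nr4a2 (ENSMUSG00000026826.13, GRCm38 chr2:57106830-57124003), known as Nurr1 and needed by dopamine neurons, had the smallest range over the 9 libraries among the 10 genes, 0.69 on the log2 scale. It had 6.56, 6.65 and 6.80 CPM in control, 6.14, 8.20 and 5.94 CPM in Hb and 9.87, 9.34 and 7.66 CPM in Hb+NTR1. Hb replicate 2 lay above the lowest Hb+NTR1 library. Control and Hb differed by 0.023 ± 0.165 on the log2 scale (edgeR adjusted p = 0.968). Hb+NTR1 was 1.32-fold higher than Hb (adjusted p = 0.0327) and 1.34-fold higher than control (adjusted p = 0.0232). The first call ended with no filter on low counts (adjusted p = 0.0595), without Hb replicate 1 (0.113) or 3 (0.124) and without Hb+NTR1 replicate 1 (0.129) or 2 (0.0887). The second ended without control replicate 1 (0.0593) or 2 (0.0531) and without Hb+NTR1 replicate 1 (0.103) or 2 (0.0690).

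Nr4a3 (ENSMUSG00000028341.9, GRCm38 chr4:48045153-48086447), or Nor1, was the rarest member, with 7, 8 and 4 counts in control, 7, 6 and 6 counts in Hb and 26, 33 and 30 counts in Hb+NTR1. These are 0.286 to 0.532 CPM in control, 0.410 to 0.494 CPM in Hb and 1.78 to 2.32 CPM in Hb+NTR1. The Hb+NTR1 libraries stood above all others, and control and Hb overlapped. Nr4a3 entered the test only through its counts in Hb+NTR1, so the p-values below are no separate support for a rise. The fitted difference was 4.52-fold from Hb (log2 2.18 ± 0.393, edgeR adjusted p = 4.06e-05) and 4.88-fold from control (log2 2.29 ± 0.392, adjusted p = 2.06e-05), and it had the largest SE of the 10 genes. It is the single member in the authors' deposited table of Hb+NTR1 against control, which gives it a log2 fold change of 2.31 and an adjusted p of 7.65e-05. The authors' deposited table lists 691 genes, the smallest absolute log2 fold change among them being 2.0046.

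The IER genes encode short-lived proteins. Ier2 (ENSMUSG00000053560.4, GRCm38 chr8:84661331-84662852), which encodes a nuclear protein, had 80.1, 82.8 and 89.0 CPM in control, 68.4, 64.7 and 62.8 CPM in Hb and 114, 121 and 111 CPM in Hb+NTR1. The 3 groups did not overlap. Its fall in Hb was 1.29-fold (log2 -0.36 ± 0.0700, edgeR adjusted p = 0.00261), the smallest of the 4 falls that passed. Its level in Hb+NTR1 was 1.77-fold that in Hb (adjusted p = 3.64e-10) and 1.38-fold that in control (adjusted p = 2.78e-06).

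Ier3 (ENSMUSG00000003541.6, GRCm38 chr17:35821684-35822923), also called IEX-1, is a regulator of cell survival that responds to NF-kB. It had 40.5, 43.9 and 61.4 CPM in control, 42.9, 46.1 and 49.5 CPM in Hb and 134, 165 and 171 CPM in Hb+NTR1. Control replicate 3 stood above every Hb library, and control and Hb overlapped (log2 -0.069 ± 0.137, edgeR adjusted p = 0.858). All Hb+NTR1 libraries lay above all others, and the difference was 3.39-fold from Hb (log2 1.76 ± 0.133, adjusted p = 2.60e-08) and 3.23-fold from control (log2 1.69 ± 0.132, adjusted p = 3.41e-08).

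Ier5 (ENSMUSG00000056708.5, GRCm38 chr1:155096361-155099636), which takes part in the heat shock response, had 44.3, 49.6 and 46.8 CPM in control, 51.3, 52.4 and 40.0 CPM in Hb and 65.9, 72.3 and 67.2 CPM in Hb+NTR1. Control and Hb overlapped (log2 0.033 ± 0.0912, edgeR adjusted p = 0.906). The Hb+NTR1 libraries lay above both, by 1.43-fold from Hb (adjusted p = 2.71e-05) and 1.46-fold from control (adjusted p = 1.12e-05).

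Dusp1 (ENSMUSG00000024190.7, GRCm38 chr17:26505590-26562128) encodes a nuclear phosphatase that inactivates p38, JNK and ERK. It had 32.3, 36.2 and 35.0 CPM in control, 38.6, 45.0 and 39.1 CPM in Hb and 61.8, 71.6 and 73.5 CPM in Hb+NTR1. It was the single member whose 3 Hb libraries all lay above control, as they did in 9.51% of tested genes, and this difference did not pass (log2 0.25 ± 0.0899, edgeR adjusted p = 0.145). In 5 members, Egr1, Egr2, Egr3, Nr4a1 and Ier2, all Hb libraries lay below control, against 10% of tested genes. Dusp1 was 1.69-fold higher in Hb+NTR1 than in Hb (log2 0.75 ± 0.0867, adjusted p = 6.80e-08) and 2.001-fold higher than in control (log2 1.00 ± 0.0875, adjusted p = 6.35e-10), which puts it at the edge of the 2-fold limit. It was under that limit without control replicate 1 (log2 0.95) and without Hb+NTR1 replicate 2 (0.97) or 3 (0.95). The same held with no filter on low counts (0.98) and, narrowly, with replicate number as a block. A long transcript model of Dusp1 shares 11 exon bases with Ergic1 on the other strand, and no source used here gives the strand setting of the counting.

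Levels of different genes were compared as CPM per kb of exons merged over all annotated transcript models of a gene. The SDs do not cover that choice of length, and which models these cells use was not tested. In control, Egr1 (56.2 ± 2.17, SD, n = 3), Ier2 (55.2 ± 2.99) and Ier3 (42.9 ± 9.92) were the most abundant, followed by Ier5 (14.3 ± 0.817) and Dusp1 (10.4 ± 0.605). Nr4a1 (3.57 ± 0.580), Egr2 (3.50 ± 0.443) and Egr3 (3.05 ± 0.458) differed by less than the larger SD of each pair, Nr4a2 had 1.64 ± 0.0299 and Nr4a3 0.0690 ± 0.0205 CPM per kb. Egr1 and Ier2 differed in control by less than their SDs. In Hb+NTR1 the order had changed at the top, with Ier3 at 138 ± 17.4, Egr1 at 90.05 ± 1.13 and Ier2 at 75.9 ± 3.48 CPM per kb. Ier5 (20.9 ± 1.03) and Dusp1 (20.8 ± 1.89) were level there, and Egr2 (8.72 ± 0.450) and Egr3 (5.66 ± 0.692) stood above Nr4a1 (4.57 ± 0.785 CPM per kb). Nr4a2 (2.21 ± 0.284) and Nr4a3 (0.345 ± 0.0449) remained last. In Hb, Ier2 (42.9 ± 1.88) and Ier3 (40.8 ± 2.93) differed by less than the larger of their SDs and Egr1 (36.7 ± 3.14) came after them. Ier5 (14.6 ± 2.097) and Dusp1 (12.4 ± 1.07) followed, then Nr4a1 (2.70 ± 0.0799), Egr2 (2.07 ± 0.576), Nr4a2 (1.67 ± 0.308), Egr3 (1.42 ± 0.116) and Nr4a3 (0.0751 ± 0.00708 CPM per kb), and neighbours among Egr2, Nr4a2 and Egr3 differed by less than the larger of their SDs.

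**Figure D3:**
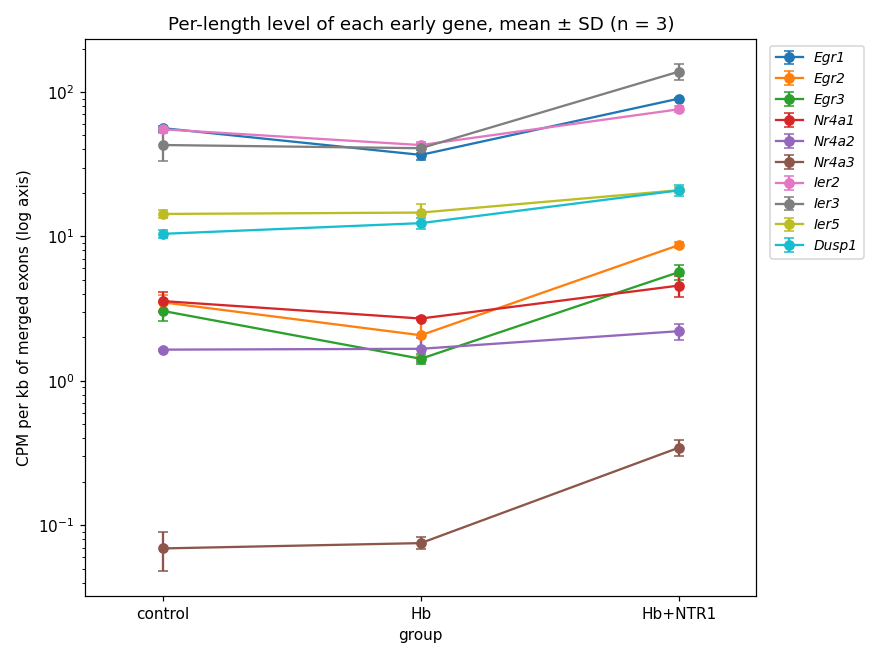
Level of each of the 10 genes in CPM per kb of merged exons (y axis, log scale) in the 3 groups (x axis), as mean ± SD with n = 3. Ier3 goes from 42.9 in control to 138 in Hb+NTR1 and passes Egr1 and Ier2, and Nr4a3 is the lowest gene in each group.

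In all 9 libraries together, the patterns within the set were compared by the root mean square difference of log2 levels after centring each gene on its mean. The closest pair of members was Nr4a2 and Ier5 (0.148), followed by Nr4a1 and Ier2 (0.186), and the farthest was Egr2 and Nr4a2 (0.737). None of the NR4A genes had another NR4A gene as its nearest member, and Nr4a3 was nearest to Ier3 (0.279). The log2 levels were taken after adding 0.5 CPM, which shrinks the differences of a gene as rare as Nr4a3. Its means were 0.413 CPM in control, 0.450 CPM in Hb and 2.06 CPM in Hb+NTR1. The nearest genes given for Nr4a3, inside and outside the set, therefore rest in part on that setting. Outside the set, Egr1 was matched most closely by Myo1d, a myosin gene, at 0.0300, with 62.0, 39.9 and 102 CPM on average in control, Hb and Hb+NTR1. Egr2 was matched by Etv5, an ETS factor gene (0.207, with 14.7, 7.87 and 36.5 CPM), and Egr3 by Id1, an inhibitor of helix-loop-helix factors (0.197, with 69.5, 41.04 and 147 CPM). Nr4a1 was nearest to Xkr5 (0.107), Nr4a2 to Arl6 (0.0531), Nr4a3 to Mfap1a (0.107), Ier2 to Snapin (0.0620), Ier3 to Crebl2 (0.121), Ier5 to Rfk (0.0639) and Dusp1 to the autophagy receptor gene Sqstm1 (0.0674). Each is the nearest of all genes with a mean of at least 5 CPM, over 9 libraries that share 3 group means, so closeness is a description.

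Other early transcription factors, among them the AP-1 subunits that are induced by the same signals, split in direction with NTR1. Of 17 listed, 16 were tested: 2 were higher and 0 lower in Hb against control, and 9 were higher and 6 lower in Hb+NTR1 against Hb, with 6 higher and 3 lower by at least 2-fold. For this list and the next ones, the background in that comparison is the 30.7% of all tested genes that were higher and the 31.6% that were lower. At 2-fold or more the shares are 6.19% higher and 9.78% lower. In Hb against control they are 1.88% higher and 1.77% lower, and in Hb+NTR1 against control 31.4% higher and 32.2% lower, with no fold limit. Fosb went from 3.72 ± 0.263 CPM in Hb to 46.02 ± 2.22 CPM in Hb+NTR1 (12.4-fold, edgeR adjusted p = 2.49e-17) and Fos from 8.05 ± 1.13 to 64.0 ± 9.08 CPM (7.96-fold, adjusted p = 5.99e-14). Both fold changes are above those of all 10 genes, with no test of that difference. Fosl2 moved the other way, from 197 ± 17.1 to 64.0 ± 3.64 CPM (3.09-fold lower, adjusted p = 4.11e-15), as did Klf2, a Krüppel-like factor, from 10.2 ± 1.53 to 3.61 ± 0.252 CPM. In Hb the called genes were Fosl2, 1.21-fold higher than control (adjusted p = 0.0237), and Klf4, 1.19-fold higher (adjusted p = 0.0414), whereas Fos and Fosb did not pass (adjusted p = 0.986 and 0.770). The median log2 fold change of the list was 0.48 in Hb+NTR1 against Hb and 0.56 against control, where again 9 were higher and 6 lower.

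Of 25 other early response genes, 24 were tested, and 3 were higher and 3 lower in Hb. The matricellular genes Ctgf (1.57-fold, edgeR adjusted p = 9.72e-05) and Cyr61 (1.47-fold, adjusted p = 0.000317) fell in Hb, and Btg2, named outside the fixed rule to complete the count, fell 1.46-fold (adjusted p = 0.00262). Gem, a small GTPase gene (1.57-fold, adjusted p = 0.00226), Ptgs2, the inducible cyclooxygenase gene (1.30-fold, adjusted p = 0.00108), and the kinase gene Sgk1, also named outside the rule (1.30-fold, adjusted p = 0.00102), rose. In Hb+NTR1 against Hb, 14 were higher and 7 lower, at a median log2 fold change of 0.67. Btg2, which restrains proliferation, went from 15.3 ± 0.319 to 91.7 ± 5.59 CPM (5.98-fold), and Hbegf, an EGF receptor ligand, from 6.79 ± 1.90 to 30.1 ± 1.84 CPM (4.42-fold). Zfp36l1, whose product helps to destroy AU-rich messenger RNAs, went down from 48.0 ± 8.85 to 13.9 ± 2.002 CPM (3.45-fold lower, adjusted p = 6.99e-12), and Sgk1 from 287 ± 14.2 to 191 ± 16.7 CPM. The relatives of Zfp36l1, named outside the rule, split in direction. Zfp36 rose from 22.0 ± 2.24 to 56.8 ± 2.95 CPM (2.57-fold, edgeR adjusted p = 7.81e-12). Zfp36l2 went down from 344 ± 17.7 to 252 ± 16.9 CPM (1.37-fold lower, edgeR adjusted p = 1.59e-06). Against control, 15 were higher and 7 lower, with Plk2, a polo-like kinase gene, among the lower (477 ± 20.5 to 281 ± 34.1 CPM, adjusted p = 3.56e-09).

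MAP kinase phosphatases, the relatives of Dusp1, and the ERK feedback genes of the Spry and Spred families had no call in Hb (14 of 15 tested, 0 higher and 0 lower by edgeR). In Hb+NTR1 against Hb, 7 were higher, among them Spry2, Spry4, Spred1 and Spred2, and 4 were lower, among them Spry1. Dusp5 went from 11.3 ± 1.60 to 44.7 ± 2.64 CPM (3.94-fold, edgeR adjusted p = 1.70e-13) and Dusp4 from 20.6 ± 1.89 to 56.9 ± 4.72 CPM (2.76-fold, adjusted p = 2.51e-12). Both encode nuclear phosphatases, and both fold changes are above the 1.69 of Dusp1, a difference that was not tested. Dusp8 fell 2.40-fold, from 29.9 ± 1.65 to 12.4 ± 1.45 CPM, and Dusp10 fell 1.59-fold. Both act mainly on JNK and p38. Dusp7, an ERK phosphatase gene, fell too, by 1.35-fold (edgeR adjusted p = 0.00105). Dusp6 rose 2.73-fold, from 46.1 ± 2.85 to 126 ± 11.9 CPM (edgeR adjusted p = 1.84e-13). Dusp14 and Dusp16 did not pass (edgeR adjusted p = 0.394 and 0.0665). These genes are named outside the rule for this comparison. Against control, 7 were higher and 3 lower, and Dusp7, an ERK phosphatase gene, was among the lower (1.56-fold, adjusted p = 9.45e-06).

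Among the kinases and factors upstream of these genes no call reached 2-fold. Of 26, 25 were tested, none passed in Hb against control, and in Hb+NTR1 against Hb 8 were higher and 9 lower, close to the 30.7% and 31.6% of all tested genes, at a median log2 fold change of 0.045. Elk1, a ternary complex factor, went from 38.4 ± 2.48 to 66.1 ± 3.32 CPM (1.72-fold, edgeR adjusted p = 9.98e-09), while Elk3, another member of that family, went from 69.3 ± 1.499 to 38.8 ± 1.59 CPM (1.78-fold lower, adjusted p = 1.38e-09). Mapk8, which encodes JNK1, was 1.60-fold higher (adjusted p = 2.73e-08) and Crtc1, a CREB coactivator gene, was 1.74-fold lower (adjusted p = 1.56e-05). Against control, 9 were higher and 8 lower. Of the 7 EGR and NR4A cofactors and relatives, 6 were tested and none passed in Hb, whereas in Hb+NTR1 the EGR corepressor gene Nab1 was 1.32-fold higher than in Hb (adjusted p = 2.28e-05) and 2 were lower, Ier5l (1.68-fold) and the NR4A partner Rxra (1.44-fold). Against control the counts were again 1 higher and 2 lower. Nab2, itself an EGR target, had 27.4 ± 3.05 CPM in control, 22.1 ± 2.26 CPM in Hb and 23.8 ± 0.486 CPM in Hb+NTR1 and passed in no comparison (adjusted p = 0.110, 0.416 and 0.0801); it was named after its values were seen.

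**Figure D4:**
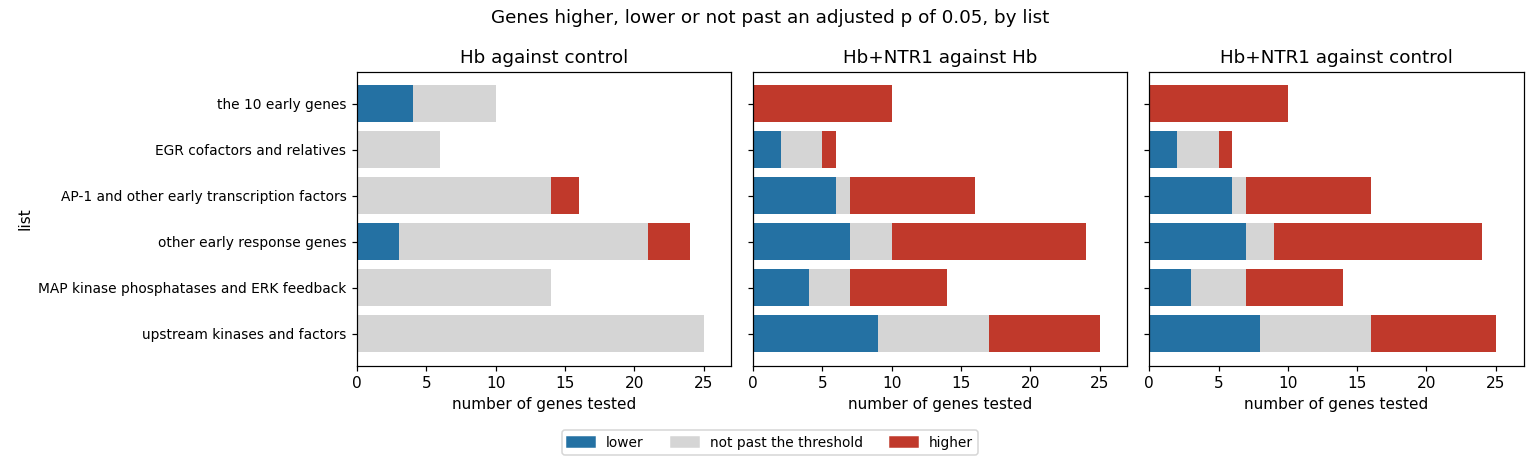
Number of tested genes (x axis) that were lower, not past an adjusted p of 0.05, or higher in each of the 3 comparisons, for the 10 early genes and 5 related lists (y axis). The 10 early genes are higher throughout in both comparisons of Hb+NTR1, while each of the 5 lists holds genes in both directions there.

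Gene length and AU-rich elements, which the choice of genes did not use, varied within the set. Of the 10 genes, 6 span under 10 kb of genome, against 35.5% of protein-coding genes. A span runs over all annotated transcript models of a gene. Longer models that start upstream of the printed promoters enter the spans of Dusp1 (56539 bases) and Nr4a1 (20527 bases). AU-rich elements mark messenger RNAs for rapid decay, and the pentamer ATTTA occurred in the longest annotated 3′ UTR of 9 members and not in that of Ier2, against 66.3% of all genes. Its density was 8.16 per kb in Ier3, 5.80 in Dusp1, 5.52 in Nr4a1, 2.65 in Egr3, 2.50 in Egr2, 2.26 in Nr4a2, 1.64 in Egr1, 1.62 in Nr4a3 and 0.933 in Ier5. The median over 20657 protein-coding genes was 1.28 per kb, and 8 of the 10 lay above it. The stricter nonamer TTATTTATT was found in Dusp1 alone among the 10, at 2 places, and in 7.79% of all genes. The first of these places in Dusp1 is shown, with the nonamer in capitals, as DNA letters of the transcript in GENCODE M21: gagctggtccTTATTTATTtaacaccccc.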

How the data were processed

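Poly(A) messenger RNA of 9 samples of cells labelled HT22 was sequenced after library preparation with a NEBNext Ultra II kit, per the labels' protocols. The authors deposited raw counts per gene symbol, not normalised, and per the submitters' processing notes the genome was GRCm38 and the tools included HTSeq 0.10.0, HISAT2 2.1.0 and bcl2fastq 2.19.1.403. Their deposited table of Hb+NTR1 against control gives log2 fold changes and p-values, from a test that no source used here names. That table holds only columns beginning in N and C, so N was taken as Hb+NTR1. Of 54232 entries, 98 exact repeats were removed.

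The counts went into edgeR 4.0.16 (R 4.3.3): filterByExpr with a minimum count of 10 (13810 genes left), TMM scaling, and 1 robust quasi-likelihood fit of all 9 libraries. Tests were two-sided with Benjamini-Hochberg adjustment over all genes tested, and SE was taken from the fold change and F. The fit was checked on simulated data. Alternatives were DESeq2 1.42.0, DESeq2 size factors, no filter, the 6 libraries of a comparison, replicate number as a block, each library left out, and library totals alone, the last chosen after seeing the data. Pattern likeness used log2 of CPM plus 0.5 over genes with a mean of at least 5 CPM. Positions, exon lengths and 3′ UTRs of at least 50 bases came from GENCODE M21 on GRCm38.

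The members and lists were chosen with earlier results of these data known. In each list, the 2 largest called changes per direction among genes whose higher group mean reached 5 CPM were named, and for each member the tested gene of most similar pattern.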

Additional observations from a re-analysis of the deposited data

How the results depend on the processing

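Under the 12 alternatives of each comparison, the 4 falls in Hb against control (Egr1, Egr2, Egr3 and Ier2) passed each time, and so did the rises of Egr1, Egr2, Egr3, Nr4a3, Ier2, Ier3, Ier5 and Dusp1 in both comparisons with Hb+NTR1. Those of Nr4a1 and Nr4a2 did not, as given beside their values, so that the number of members higher ran from 9 to 10 against Hb and from 8 to 10 against control. Nr4a3 entered the filtered fits only through its counts in Hb+NTR1, so its passing in those fits is no separate support. With no filter on low counts it passed as well (edgeR adjusted p = 1.57e-05 against Hb and 4.90e-06 against control). The number of members at least 2-fold higher than control ran from 3 to 4, and that of members at least 2-fold lower in Hb from 0 to 1, at 0 without control replicate 1. Of all genes, 504 were called in Hb against control with all libraries, and the count ran from 285 to 1125 as libraries were left out: 315, 285 and 286 without control replicates 1, 2 and 3, and 1125 without Hb replicate 2. Among differences between Hb and control that did not pass, the sign turned for Ier5 (-0.0092 without control replicate 1, -0.018 without Hb replicate 1, -0.038 without Hb replicate 2, range -0.038 to 0.15), Nr4a3 (-0.077 without control replicate 3, range -0.077 to 0.32), Ier3 (0.13 without control replicate 3, range -0.19 to 0.13) and Nr4a2 (-0.14 without Hb replicate 2, range -0.14 to 0.11). The cause was not tested. With only the 6 libraries of Hb and control, Nr4a3 was below the filter and has no value. By library totals, 377 genes were higher and 196 lower in Hb, against 259 and 245.

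No clear pairing of libraries by equal replicate number was seen: deviations from group means correlated across genes at -0.0453 to 0.118, and 2 of 6, 3 of 6 and 2 of 6 libraries were closest to their own number. With 3 libraries per group this check cannot exclude a shared culture or day, on which the labels are silent. With the replicate block, 645 genes were called in Hb against control, 8706 in Hb+NTR1 against Hb and 8898 against control, and no member gained or lost a call at the adjusted p of 0.05, while Dusp1 went under 2-fold against control (log2 0.998). Depth limits Nr4a3 most, at 4 to 8 counts per library outside Hb+NTR1.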
